A study of Mus musculus with 6 samples.

Results

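The 10 genes described here, Marco, Siglecf, Pparg, Ear1, Ear2, Fabp1, Itgax, Abcg1, Atp6v0d2 and Ctsk, are known from mouse lung as genes of the resident alveolar macrophage. They were taken by name from a count table of 25860 genes, and all 10 had the 10 reads in total that were required for the test, as did 17231 genes of the table. The reads come from normal-looking lung tissue of 3 mice of genotype RAG1-/- (replicates 1 to 3) and 3 of genotype RAG1-/- Sgo1-/+ (replicates 4 to 6), all kept to 12 months of age without treatment and sequenced as 1 library per mouse. By their labels both groups lack RAG1, the recombinase subunit that T and B lymphocytes need to assemble their receptors. The second group also carries 1 intact copy of Sgo1, a guardian of chromosome cohesion whose partial loss causes chromosome instability. The mice came from the second generation of an intercross on the C57BL/6 background, and mice of both sexes were used in the study. The comparison asks how chromosome instability alters lung tissue of normal appearance, here read through its resident macrophages.

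Alveolar macrophages live in the airspace, where they clear surfactant lipid, dust and microbes. They settle in the lung around birth, when GM-CSF from the epithelium switches on the transcription factor PPARg, and they then maintain themselves locally. They carry the receptors Siglec-F and CD11c, are rich in lysosomes and in genes of lipid handling, and are not replaced by blood monocytes to any large extent in the undisturbed lung.

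Total counts on genes were 3205822 to 9366774 per library, so that the smallest amount treated as detected, 3 reads, was 0.320 to 0.936 CPM, the unit used below, which is a gene's count relative to its library's total. Replicate 6 was the shallowest library. Several libraries stood apart or went against their labels. Xist, a gene of female cells, had 7717 reads in replicate 1 and 4 to 8 in the others. Ddx3y, a gene of the Y chromosome, had 2 reads in replicate 1 and 342 to 1228 in the others. By these genes replicate 1 was female and the other libraries male, so only RAG1-/- held both sexes. The labels give no sex. Igkc, an immunoglobulin light chain gene that needs RAG1 for its rearrangement, had 1853 reads in replicate 2, 8 in replicate 1 and 0 in the other 4 libraries. A list of 10 genes of B cells and plasma cells, Igkc included, summed to 1053 CPM in replicate 2 and 19.0 to 25.6 in the others. These values go against the RAG1-/- label of replicate 2, which was kept. Sgo1 had 0 to 6 reads in each library, too few to check the genotype. Adipocyte genes were high in replicate 1, and macrophage genes of several kinds were high in replicate 6, so values without these libraries are given beside the results they set.

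Reference sequence from just upstream of the members gives the context of their regulation. The RefSeq table of promoters (GRCm38.p6) matched 8 of the 10 members, all but Abcg1 and Atp6v0d2, in 10 windows of 250 bases that end at a start site. The first 3 windows shown are those of the members with an unadjusted *P* under 0.05 between the genotypes, and capitals mark GAGGAA, a core letter string bound by PU.1, the master factor of macrophages, or TGANTCA, the AP-1 string, on either strand. Siglecf lies at chr7:43351091-43351340 on the plus strand, Itgax at chr7:128129300-128129549 on the plus strand and Ctsk at chr3:95498960-95499209 on the plus strand.
Siglecf: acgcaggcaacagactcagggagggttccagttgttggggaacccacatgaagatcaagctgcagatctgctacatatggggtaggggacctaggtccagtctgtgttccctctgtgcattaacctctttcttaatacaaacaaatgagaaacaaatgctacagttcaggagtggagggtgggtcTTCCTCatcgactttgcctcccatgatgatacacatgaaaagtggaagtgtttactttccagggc
Itgax: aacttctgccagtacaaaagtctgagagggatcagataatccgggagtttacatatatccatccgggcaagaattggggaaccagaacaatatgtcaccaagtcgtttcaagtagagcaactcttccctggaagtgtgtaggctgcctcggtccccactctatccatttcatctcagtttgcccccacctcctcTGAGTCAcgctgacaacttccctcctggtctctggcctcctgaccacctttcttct
Ctsk: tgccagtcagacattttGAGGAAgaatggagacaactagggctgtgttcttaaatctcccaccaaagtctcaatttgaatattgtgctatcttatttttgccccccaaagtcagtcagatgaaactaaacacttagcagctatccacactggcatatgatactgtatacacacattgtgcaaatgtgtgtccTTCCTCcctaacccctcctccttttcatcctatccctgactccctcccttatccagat

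GAGGAA or its complement was found in 5 of the 10 windows, 1 for each of 5 members. It lay 146 bases before the start site in Marco, 65 in Siglecf, 240 in 1 window of Pparg, 45 in Fabp1, and 233 and 58 in Ctsk. Of 32851 promoter windows of the same length, 23.3% hold it. TGANTCA, held by 6.75% of windows, was found in Itgax, 56 bases before the start, and CACGTG, an E-box held by 6.02%, was found in none of the members' windows. The 2 ribonuclease genes Ear1 (chr14:43819640-43819889, minus strand) and Ear2 (chr14:44102404-44102653, plus strand) are shown because they are close copies that were counted separately. Their windows were identical at 246 of 248 aligned bases (99.19%), and capitals mark the bases that differ.
Ear1: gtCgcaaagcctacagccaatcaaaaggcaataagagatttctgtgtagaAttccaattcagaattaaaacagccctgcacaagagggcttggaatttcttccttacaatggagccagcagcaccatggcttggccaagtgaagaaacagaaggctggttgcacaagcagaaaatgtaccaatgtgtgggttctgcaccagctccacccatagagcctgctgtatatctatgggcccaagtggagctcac
Ear2: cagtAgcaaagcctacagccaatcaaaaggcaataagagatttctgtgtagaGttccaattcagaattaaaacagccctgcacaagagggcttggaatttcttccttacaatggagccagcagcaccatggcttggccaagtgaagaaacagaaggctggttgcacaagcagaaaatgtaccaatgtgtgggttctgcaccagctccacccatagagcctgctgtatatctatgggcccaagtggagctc

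No member passed the test between the genotypes. The quasi-likelihood test of edgeR, at a 2-fold threshold and a Benjamini-Hochberg adjusted *P* under 0.05, called 0 of the 10 genes and 0% of all genes tested, and the adjusted *P* of the members lay between 0.832 and 0.997. At an unadjusted *P* under 0.05 there were 976 genes in the table (5.66%), among them 3 members, Siglecf with lower and Itgax and Ctsk with higher counts in RAG1-/- Sgo1-/+. Lower genes at this threshold were 2.52% and higher genes 3.15% of those tested. With a 2-fold difference in addition they were 1.35%, and 2 members, Itgax and Ctsk, met both. By size alone, 1 member was at least 2-fold lower, Fabp1, against 3.08% of genes, and 3 were at least 2-fold higher, Itgax, Atp6v0d2 and Ctsk, against 3.28%. The log2 fold change was below 0 for 4 members and for 45.1% of genes. DESeq2 called 1 gene, Awat1, and limma-voom and the exact test of edgeR called 0. The median log2 fold change was 0.10 over the members and 0.03 over all genes tested. Since lung tissue was sequenced in bulk, fewer macrophages and less RNA per macrophage cannot be told apart in any of these values.

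**Figure D1:**
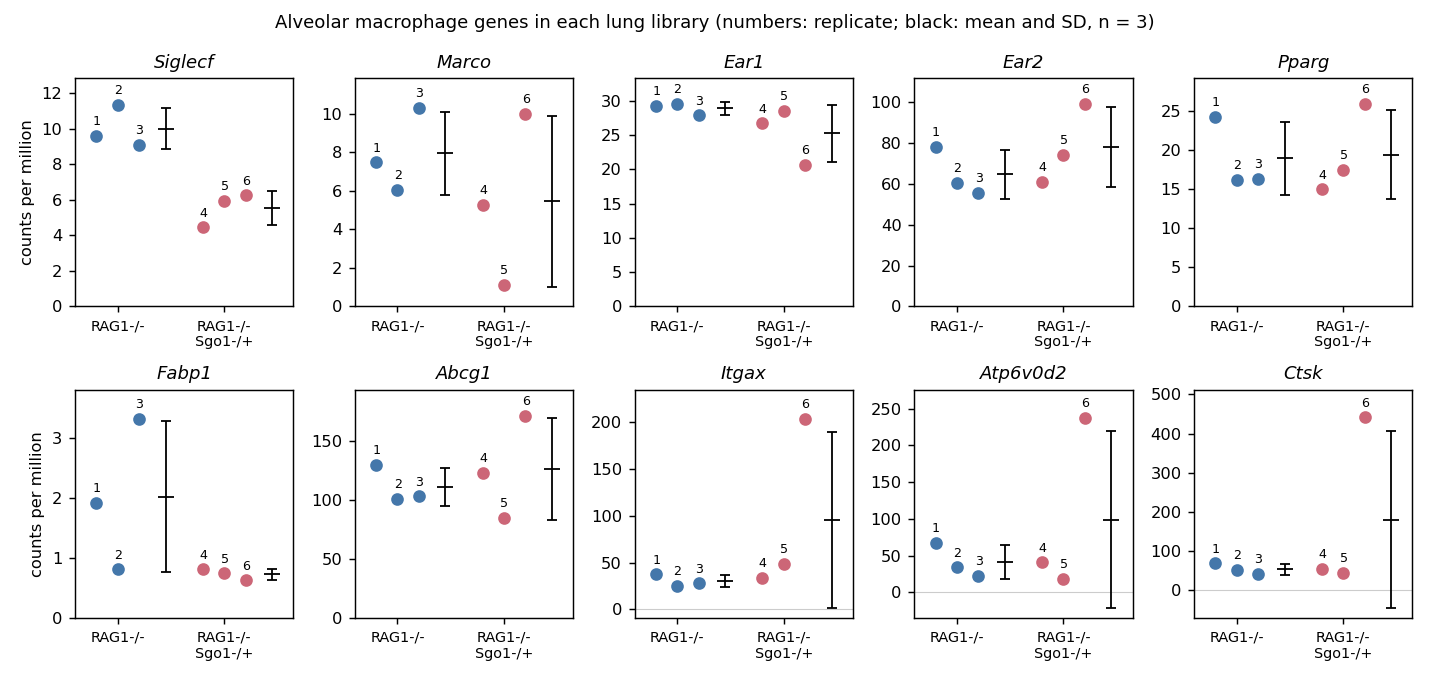
CPM (y axis, linear, a separate scale for each gene) of the 10 alveolar macrophage genes in the 3 RAG1-/- and 3 RAG1-/- Sgo1-/+ lung libraries, numbered by replicate, with the group mean and SD (n = 3) beside the points. Siglecf is the member whose groups lie clearly apart, while Itgax, Atp6v0d2 and Ctsk are set by replicate 6, at 203, 238 and 441 CPM.

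The surface receptors were read first. Siglecf (Entrez Gene ID 233186) encodes Siglec-F, an inhibitory lectin for sialic acid that marks alveolar macrophages and eosinophils. It had 90, 56 and 60 reads in RAG1-/- (9.61, 11.3 and 9.08 CPM) and 22, 32 and 20 in RAG1-/- Sgo1-/+ (4.44, 5.93 and 6.24 CPM). All 3 RAG1-/- libraries lay above all 3 RAG1-/- Sgo1-/+ libraries. The means were 10.001 ± 1.17 and 5.54 ± 0.959 CPM (SD, n = 3), a log2 fold change of -0.85 (SE 0.28) or 1.81-fold lower in RAG1-/- Sgo1-/+. The edgeR test gave an unadjusted *P*=0.0114 and an adjusted *P*=0.832, and a two-sided exact permutation test gave *P*=0.1, the smallest that 3 against 3 libraries allow. The difference was -0.94 without replicate 6, -0.76 without replicate 2 and -0.88 without replicate 1. Across the table, 5.54% of genes had groups that did not overlap with RAG1-/- Sgo1-/+ lower, and Siglecf was such a gene. Fabp1 counted as a second one only by the last digits of its CPM, as described with that gene.

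Siglec-F is shared with eosinophils, so their defining genes were read beside it. Epx and Ccr3 had 0 reads in all 6 libraries, Prg2 and Il5ra had 4 reads each in replicate 2 and 0 elsewhere, and Prg3 had at most 2. These 5 defining genes were thus at or near 0 in both groups. The whole list of 11 eosinophil genes, which includes Siglecf, Ear1 and Ear2, summed to 103 to 128 CPM in RAG1-/- and 104 to 151 in RAG1-/- Sgo1-/+, and 5 could be tested, of which 1 was higher (Ear6) and 1 lower (Siglecf) at an unadjusted *P* under 0.05. Of the 8 members of the Siglec family that could be tested, Siglecf was the only one with an unadjusted *P* under 0.05. Cd33, the next by *P*, had 5.44 ± 2.504 CPM in RAG1-/- lungs and 10.9 ± 7.65 in RAG1-/- Sgo1-/+ lungs (log2 fold change 0.98, SE 0.51, adjusted *P*=0.832). Its difference was 0.28 when replicate 6 was left out. Siglech, a marker of plasmacytoid dendritic cells, had 2 to 15 reads per library (-0.86, SE 0.65). Scaled to 1000 CPM of 12 genes common to all macrophages, Siglecf was at 1.002 ± 0.241 in RAG1-/- lungs and 0.547 ± 0.147 in RAG1-/- Sgo1-/+, and the groups again did not overlap. Lyz2, which type 2 epithelial cells also express, made up 75.4 to 87.3% of that macrophage sum.

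Marco (Entrez Gene ID 17167) encodes a scavenger receptor for bacteria and inhaled particles. Its counts were 70, 30 and 68 in RAG1-/- (7.47, 6.06 and 10.3 CPM) and 26, 6 and 32 in RAG1-/- Sgo1-/+ (5.25, 1.11 and 9.98 CPM). Replicate 5 was far below the rest and replicate 6 lay among the RAG1-/- libraries, so the groups overlapped. The 6 reads of replicate 5 have an exact 95% Poisson interval of 0.408 to 2.42 CPM, below the intervals of replicates 4 (3.43 to 7.70) and 2 (4.09 to 8.65), counting error only. All 6 counts are even. If both reads of each pair were counted, the interval of replicate 5 widens to 0.229 to 3.25 CPM, which overlaps that of replicate 4 (2.80 to 8.98) and stays below that of replicate 2 (3.39 to 9.997). The means were 7.94 ± 2.15 and 5.45 ± 4.44 CPM, with a log2 fold change of -0.62 (SE 0.58, unadjusted *P*=0.309, adjusted *P*=0.880). The value moved with single libraries, to -1.34 (SE 0.56, unadjusted *P*=0.0410, adjusted *P*=0.900) without replicate 6 and to -0.09 without replicate 5.

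Among 16 scavenger receptors, Marco included, 2 had an unadjusted *P* under 0.05 and both were higher in RAG1-/- Sgo1-/+. Cd68, a glycoprotein of macrophage lysosomes, had 16.2, 6.06 and 7.87 CPM in RAG1-/- lungs and 13.9, 13.2 and 63.0 in RAG1-/- Sgo1-/+ lungs (log2 fold change 1.497, SE 0.59, adjusted *P*=0.832), and its difference was 0.40 (unadjusted *P*=0.333) without replicate 6. Stab1, which takes up modified lipoproteins, was at 0.35 (SE 0.16) and at 0.45 without replicate 6. The receptors at an unadjusted *P* under 0.05 were then 1 higher (Stab1) and 3 lower (Marco, Scara3 and Clec7a). Clec7a, the beta-glucan receptor dectin-1, reached 491 CPM in replicate 6 against 54.5 to 96.5 in the other libraries. Thus 6 of the 16 receptors, against 2.51% of all genes tested, were at least 2-fold above every other library in replicate 6, while Marco was not.

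Itgax (Entrez Gene ID 16411) encodes CD11c, the alpha chain of an integrin that alveolar macrophages and dendritic cells carry. It had 350, 126 and 183 reads in RAG1-/- (37.4, 25.5 and 27.7 CPM) and 166, 262 and 652 in RAG1-/- Sgo1-/+ (33.5, 48.5 and 203 CPM). Replicates 6 and 5 were the highest and second highest libraries, and replicate 4 lay within the RAG1-/- range. The means were 30.2 ± 6.33 and 95.1 ± 94.0 CPM, the log2 fold change 1.62 (SE 0.56), the unadjusted *P*=0.0154 and the adjusted *P*=0.832. The exact permutation test gave *P*=0.2. Without replicate 6 the log2 fold change was 0.44 (SE 0.22, unadjusted *P*=0.0771).

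Itgb2, the shared beta chain that pairs with CD11c, was at 43.7 ± 11.5 CPM in RAG1-/- lungs and at 41.2, 49.5 and 158 CPM in replicates 4, 5 and 6 (log2 fold change 0.90, SE 0.44, adjusted *P*=0.832), a difference of 0.05 without replicate 6. Itgam, the alpha chain CD11b of monocytes and neutrophils, was at 43.0 CPM in replicate 6 against 10.996 to 22.9 in the others. Of 7 beta2 integrin genes and partners, Itgax alone had an unadjusted *P* under 0.05. Part of the Itgax transcript (3.7% of its 100-base windows in GENCODE) is also found in Itgad, which had at most 10 reads in a library.

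CD11c is also a dendritic cell gene, so markers of those cells were read beside it. Of 14 dendritic cell markers, 3 had an unadjusted *P* under 0.05 and were higher in RAG1-/- Sgo1-/+, as were 3.15% of all genes tested. The log2 fold change was above 0 for 11 of the 14 and below 0 for 3. Without replicate 6, 12 were above 0 and 2 below, Clec9a (-0.12) and Cd209a (-0.19). Cd74, the invariant chain of MHC class II, had 554, 505 and 516 CPM in RAG1-/- lungs and 642, 807 and 864 in RAG1-/- Sgo1-/+ lungs (log2 fold change 0.55, SE 0.14, unadjusted *P*=0.0028, adjusted *P*=0.832). Ccl22, a chemokine of mature dendritic cells, was at 1.03 (SE 0.31) and H2-Ab1 at 0.47 (SE 0.19, and 0.37 with an unadjusted *P*=0.0851 without replicate 6). The summed markers were 1564 to 1729 CPM in RAG1-/- lungs and 1657, 2550 and 2379 in replicates 4, 5 and 6, and none of the 14 was at least 2-fold above every other library in replicate 6. Their part in the Itgax values was not tested.

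Pparg (Entrez Gene ID 19016) encodes the lipid-sensing nuclear receptor that sets alveolar macrophage identity. Its counts were 227, 80 and 108 in RAG1-/- (24.2, 16.2 and 16.3 CPM) and 74, 94 and 83 in RAG1-/- Sgo1-/+ (14.9, 17.4 and 25.9 CPM). The highest libraries, replicates 1 and 6, came from different groups, and the other 4 lay close together. The genotypes differed by a log2 fold change of 0.01 (SE 0.25, adjusted *P*=0.997) on means of 18.9 ± 4.61 and 19.4 ± 5.74 CPM. It was 0.24 without replicate 1 and -0.24 without replicate 6. PPARg is likewise the master factor of fat cells, whose 12 markers summed to 974 CPM in replicate 1 and to 185 to 228 in the others, with 5 of the 12 lower in RAG1-/- Sgo1-/+ at an unadjusted *P* under 0.05 with all 6 libraries and 0 lower with edgeR without replicate 1. Adipoq, the adiponectin gene, had 86.0 CPM in replicate 1 and 4.99 to 12.5 elsewhere. The part of fat in the Pparg level of replicate 1 was not tested.

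In the pathway from GM-CSF to PPARg, 2 of 20 genes had an unadjusted *P* under 0.05 and both were higher in RAG1-/- Sgo1-/+, with a median log2 fold change of 0.20 over the list. Tgfb1, a cytokine that alveolar macrophages need for their identity, had 18.5, 11.7 and 13.5 CPM in RAG1-/- lungs and 19.2, 21.7 and 28.4 in RAG1-/- Sgo1-/+ lungs (log2 fold change 0.64, SE 0.23, unadjusted *P*=0.0197, adjusted *P*=0.832). It was at 0.48 (unadjusted *P*=0.0738) when replicate 6 was left out. Its groups did not overlap, and neither did those of Rxra, the nuclear receptor that pairs with PPARg (0.30, SE 0.14). At an unadjusted *P* under 0.05 the list held 1 higher (Ncoa1) and 1 lower gene (Stat5a) without replicate 6, and 5 higher and 0 lower genes with edgeR without replicate 1. Genes with non-overlapping groups and RAG1-/- Sgo1-/+ higher were 6.24% of those tested.

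The ligand and its receptor were read in the same list. Csf2, the GM-CSF gene, had 69, 4 and 55 reads in RAG1-/- lungs and 22, 18 and 24 in RAG1-/- Sgo1-/+ lungs (log2 fold change -0.18, SE 0.64), with replicate 2 the lowest library. Csf2ra, the specific receptor chain, was at 30.8 ± 1.92 and 40.5 ± 12.5 CPM (0.38, SE 0.21), and Csf2rb, the signalling chain, at 26.9 ± 10.04 and 49.6 ± 35.5 CPM (0.84, SE 0.43). Csf2rb2, the close copy of Csf2rb that serves IL-3, was at 8.09 ± 3.13 and 18.3 ± 12.3 CPM (1.12, SE 0.45, unadjusted *P*=0.0322, adjusted *P*=0.832). Replicate 6 was the highest library for all 3 receptor genes, and without it Csf2ra was at 0.15, Csf2rb at 0.11 and Csf2rb2 at 0.45 (unadjusted *P*=0.230). Spi1, which encodes PU.1, was at 10.1, 18.2 and 32.4 CPM in replicates 4, 5 and 6 and at 9.38 to 16.1 in RAG1-/- (0.70, SE 0.38, and 0.22 without replicate 6).

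The 2 members of lipid handling differed in level. Abcg1 (Entrez Gene ID 11307) encodes a transporter that exports cholesterol from surfactant-laden macrophages, and endothelial and epithelial cells of the lung express it too. It had 1215, 499 and 681 reads in RAG1-/- (129.7, 100.8 and 103 CPM) and 610, 458 and 550 in RAG1-/- Sgo1-/+ (123, 84.8 and 172 CPM). The highest and the lowest library were both of RAG1-/- Sgo1-/+, replicates 6 and 5. The means were 111 ± 16.1 and 127 ± 43.5 CPM, with a log2 fold change of 0.18 (SE 0.23, adjusted *P*=0.911) that went to -0.10 without replicate 6.

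Fabp1 (Entrez Gene ID 14080), a fatty acid carrier best known from liver, was close to the detection limit. It had 18, 4 and 22 reads in RAG1-/- (1.92, 0.808 and 3.33 CPM) and 4, 4 and 2 in RAG1-/- Sgo1-/+ (0.808, 0.741 and 0.624 CPM). Replicates 1 and 3 held 40 of its 54 reads. Replicates 2 and 4, both with 4 reads, came from different groups and differed only in the last digits of their CPM, so the groups touched. The log2 fold change was -1.45 (SE 0.72, unadjusted *P*=0.0698, adjusted *P*=0.832) on means of 2.02 ± 1.26 and 0.724 ± 0.0932 CPM. It ranged from -1.80 without replicate 2 (unadjusted *P*=0.0259) to -0.92 without replicate 3. Of 8 liver and gut genes, Ttr, Cyp3a11 and Apoa4 had 0 reads in all 6 libraries, Alb had at most 6, and Vil1, also made by other epithelia, had 3 to 13.

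Of 22 genes for lipid uptake, storage and efflux, 1 had an unadjusted *P* under 0.05. This was Nr1h2, which encodes the oxysterol receptor LXRb and was at 51.0 to 53.0 CPM in RAG1-/- lungs and 62.0 to 67.7 in RAG1-/- Sgo1-/+ lungs (log2 fold change 0.33, SE 0.12, adjusted *P*=0.832). Lipa, the lysosomal lipase, reached 141 CPM in replicate 6 against 60.4 to 91.1 in the others. In the FABP family 0 of 5 tested genes had an unadjusted *P* under 0.05. Fabp4, a carrier that fat cells and alveolar macrophages share, had 240 CPM in replicate 1, 75.2 in replicate 6 and 17.4 to 36.0 in the others (-1.40, SE 0.75, and 0.15 without replicate 1), while Fabp5 had its highest level, 103 CPM, in replicate 6.

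Ear1 and Ear2 encode eosinophil-associated ribonucleases with antiviral activity, and Ear1 was the most even member across the libraries. For Ear1 (Entrez Gene ID 13586) the levels were 29.3, 29.5 and 27.8 CPM in RAG1-/- lungs and 26.7, 28.5 and 20.6 CPM in RAG1-/- Sgo1-/+, from 274, 146, 184, 132, 154 and 66 reads. Replicate 6 was the lowest library and the other 5 lay within 3 CPM of each other. The means were 28.9 ± 0.892 and 25.3 ± 4.15 CPM, and the genotypes differed by -0.18 on the log2 scale (SE 0.16, adjusted *P*=0.876).

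Ear2 (Entrez Gene ID 13587) had 78.3, 60.6 and 55.4 CPM in RAG1-/- lungs and 60.8, 74.3 and 99.2 CPM in RAG1-/- Sgo1-/+, from 733, 300, 366, 301, 401 and 318 reads. Here replicate 6 was the highest library, in contrast to Ear1. The fold change was 0.26 on the log2 scale (SE 0.20, adjusted *P*=0.860), and without replicate 6 the 2 genes were at -0.06 and 0.06. The Ear1 and Ear2 transcripts are 96.8% identical over 713 aligned bases. Of their 100-base windows, 23.9% of Ear1 and 13.9% of Ear2 occur in another gene, chiefly a pseudogene or Ear10, and the treatment of reads with several matches was not given in the sources used here, so both levels are uncertain.

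The rest of this ribonuclease family held small counts in 1 library. Rnase2a had 40 reads in replicate 6, 2 in replicate 3 and 0 in the other 4 libraries, and Ear6 had 22 reads in replicate 6, 2 in replicate 1 and 0 in the other 4. Both had an unadjusted *P* under 0.05, and they were the 2 such genes of 8 tested. Without replicate 6 they had too few reads to be tested. Ear10 had 10, 6 and 6 reads in RAG1-/- lungs and 0, 8 and 2 in RAG1-/- Sgo1-/+.

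The 2 members of the lysosome had the widest span from their lowest to their highest library. Ctsk (Entrez Gene ID 13038) encodes cathepsin K, a collagen-degrading protease of osteoclasts, fibroblasts and alveolar macrophages. It had 630, 246 and 261 reads in RAG1-/- (67.3, 49.7 and 39.5 CPM) and 264, 234 and 1414 in RAG1-/- Sgo1-/+ (53.3, 43.3 and 441 CPM). Replicate 6 was 6.56 times the highest other library, and replicates 4 and 5 lay within the RAG1-/- range. The means were 52.2 ± 14.04 and 179 ± 227 CPM, the log2 fold change 1.76 (SE 0.74), the unadjusted *P*=0.0387 and the adjusted *P*=0.832, with an exact permutation *P*=0.6. Without replicate 6 the log2 fold change was -0.12 (SE 0.22, unadjusted *P*=0.609). Fibroblast markers, 10 genes, summed to 1018 CPM in replicate 6, to 812 to 1684 in RAG1-/- lungs and to 1312 and 979 in replicates 4 and 5. Of the 10, 9 had a log2 fold change below 0, and 1 was lower at an unadjusted *P* under 0.05 with edgeR. Without replicate 1, which had the lowest sum, 4 were lower at this threshold (Dcn, Col3a1, Dpt and Col1a2). In that fit 7.09% of all genes tested met the threshold in either direction. Their part in the Ctsk values was not tested.

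Of 13 cathepsins tested, 3 had an unadjusted *P* under 0.05 and were higher in RAG1-/- Sgo1-/+, namely Ctsk, Ctss and Ctsz. Ctss, the protease that trims the invariant chain, was at 161, 129 and 104 CPM in RAG1-/- lungs and 106, 164 and 834 in RAG1-/- Sgo1-/+ lungs (log2 fold change 1.48, SE 0.62, adjusted *P*=0.832). Its difference fell to 0.04 when replicate 6 was left out. Ctsz was at 509 CPM in replicate 6 and 134 to 160 in the others, and at a log2 fold change of 0.08 without replicate 6. In replicate 6, 6 of the 13 were at least 2-fold above every other library, a rank that 2.51% of all tested genes had. Without it 0 of the 13 had an unadjusted *P* under 0.05 with edgeR, and the median went from 0.70 to -0.08.

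Atp6v0d2 (Entrez Gene ID 242341) encodes the d2 subunit of the vacuolar proton pump, which acidifies lysosomes in macrophages and osteoclasts. It had 627, 167 and 145 reads in RAG1-/- (66.9, 33.7 and 21.9 CPM) and 201, 100 and 762 in RAG1-/- Sgo1-/+ (40.6, 18.5 and 238 CPM). The highest and the lowest library were both of RAG1-/- Sgo1-/+, and replicate 1 ranked second. The log2 fold change was 1.23 (SE 0.76, unadjusted *P*=0.137, adjusted *P*=0.845) on means of 40.9 ± 23.3 and 98.9 ± 121 CPM, and -0.49 (SE 0.45) without replicate 6. Other subunits of the pump varied less. Of 19 subunits, 1 had an unadjusted *P* under 0.05, Tcirg1 (0.59, SE 0.26, and 0.18 without replicate 6), and Atp6v0d2 alone was at least 2-fold above every other library in replicate 6. Atp6v0d1, the form of the d subunit found in most cells, was at 95.5 ± 11.8 and 97.2 ± 19.7 CPM (0.02, SE 0.17).

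**Figure D2:**
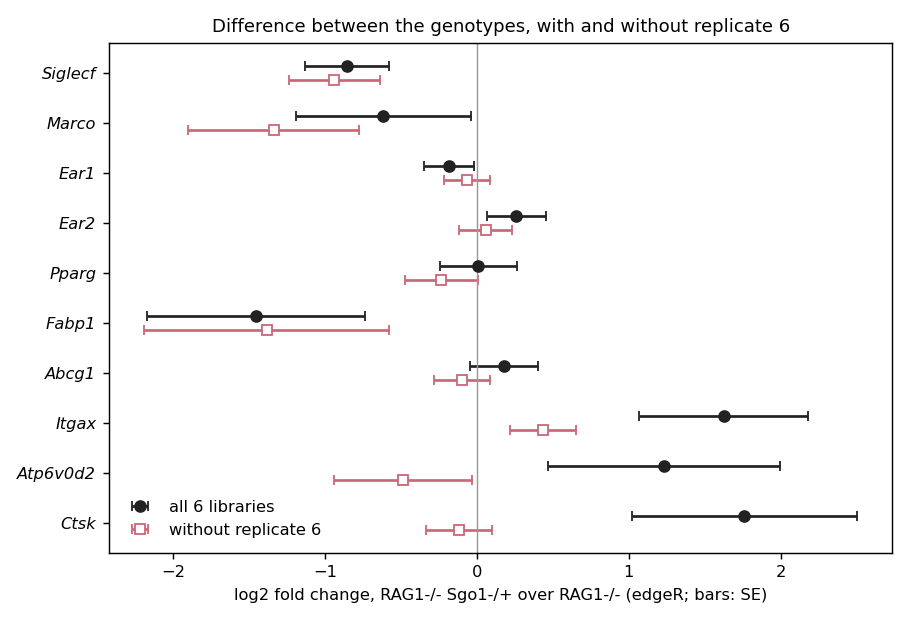
Log2 fold change of RAG1-/- Sgo1-/+ over RAG1-/- (x axis, bars show the SE of the edgeR fit) for the 10 genes with all 6 libraries (filled circles) and without replicate 6 (open squares). Ctsk went from 1.76 to -0.12 and Atp6v0d2 from 1.23 to -0.49, whereas Siglecf was at -0.85 and -0.94.

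Replicate 6 divided the members. It was the highest library for 6 of the 10, Pparg, Ear2, Itgax, Abcg1, Atp6v0d2 and Ctsk, as for 25.4% of all genes tested, and it was at least 2-fold above every other library for 3, Itgax, Atp6v0d2 and Ctsk, as for 2.51%. It was the lowest for Ear1 and Fabp1, and Siglecf and Marco lay among the other libraries. Summed over the 10 genes, the level was 452, 334 and 314 CPM in RAG1-/- lungs and 364, 323 and 1216 in RAG1-/- Sgo1-/+. Without replicate 6, 8 of the 10 members had a log2 fold change below 0, as did 47.4% of 17049 genes tested, with a median of -0.18. Siglecf and Marco then had an unadjusted *P* under 0.05, both lower, as did 2.47% of the genes. With replicate 6 left out, replicate 1 was the highest library for Pparg (24.2 CPM), Abcg1 (129.7), Atp6v0d2 (66.9) and Ctsk (67.3). With replicate 1 left out instead, 4 of the 10 were below 0, with a median of 0.27. Leaving out both libraries was not tested.

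Per kilobase of transcript, which allows genes to be ranked, Ear2 was the most abundant member in RAG1-/- at 90.1 ± 16.7 CPM per kb. Ear1 followed at 40.5 ± 1.25 and Ctsk at 34.5 ± 9.29, then Abcg1 at 19.1 ± 2.76 and Atp6v0d2 at 16.1 ± 9.19. The lower ranks were Pparg at 8.90 ± 2.17, Itgax at 7.46 ± 1.56, Marco at 4.13 ± 1.12, Siglecf at 3.84 ± 0.448 and Fabp1 at 3.65 ± 2.29 CPM per kb. Neighbours from Ear1 to Ctsk, from Abcg1 through Atp6v0d2 and Pparg to Itgax, and among the last 3 differed by less than the larger of their SDs. In replicate 6 the order changed, with Ctsk at 292, Ear2 at 138, Atp6v0d2 at 93.6 and Itgax at 50.3 CPM per kb.

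**Figure D3:**
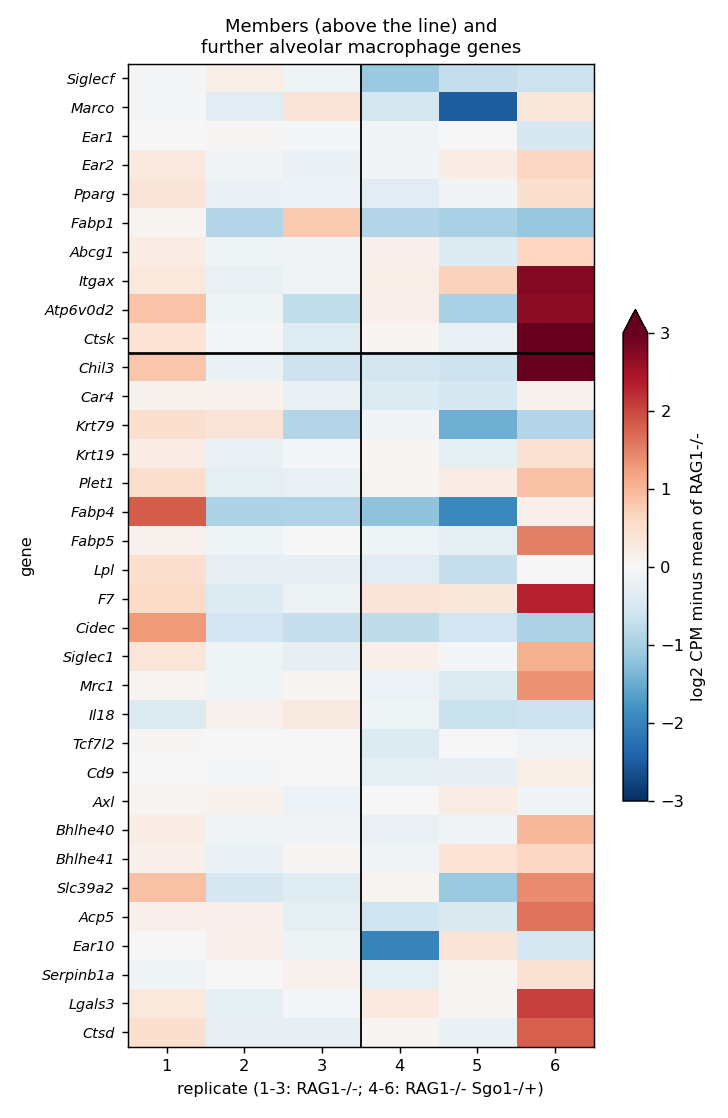
Log2 CPM of the 10 members (above the line) and 24 further alveolar macrophage genes, each minus its RAG1-/- mean, in the 6 libraries (x axis, replicates 1 to 6). The color scale runs from -3 to 3 and its upper end also holds larger values. Replicate 6 is the darkest red column for Ctsk, Chil3, Itgax, Atp6v0d2 and F7, and is blue for Siglecf, Ear1 and Fabp1.

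Further genes known from alveolar macrophages showed the same division by library. Of 24, 3 had an unadjusted *P* under 0.05 with higher counts in RAG1-/- Sgo1-/+ (Chil3, F7 and Lgals3) and 1 with lower counts (Cidec), and the median log2 fold change was 0.18. Chil3, which encodes the chitinase-like protein Ym1, had 651, 321 and 238 CPM in RAG1-/- lungs and 249, 239 and 6083 in RAG1-/- Sgo1-/+ lungs (log2 fold change 2.44, SE 1.07, adjusted *P*=0.832). Without replicate 6 it was at -0.73 (unadjusted *P*=0.0682). F7, coagulation factor VII, reached 64.6 CPM in replicate 6 and 9.50 to 19.0 in the others, and Lgals3, galectin-3, reached 608 against 122 to 182. Without replicate 6 they were at 0.29 and 0.15, so none of the 3 kept an unadjusted *P* under 0.05. Cidec, a lipid droplet protein that fat cells share, was set by 67.7 CPM in replicate 1, with 14.3 to 18.6 in the others, and its log2 fold change went from -1.08 to -0.10 without replicate 1 (unadjusted *P*=0.651). In all, 16 of the 24 had their highest level in replicate 6, as did 25.4% of all genes tested. There 7 were at least 2-fold above every other library, as were 2.51% of all genes tested.

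Without replicate 6, 18 of these 24 genes had a log2 fold change below 0, against 47.4% of all genes tested, with a median of -0.23. At an unadjusted *P* under 0.05 with edgeR there were then 4 lower genes, Car4 (-0.47), Fabp4 (-2.18), Lpl (-0.55) and Acp5 (-0.54), and 0 higher ones, named after their values were seen. Lower genes at this threshold were 2.47% of all genes tested. Car4, a carbonic anhydrase that lung capillary cells also express, had 172, 172 and 138 CPM in RAG1-/- lungs and 121, 110 and 176 in RAG1-/- Sgo1-/+. Replicate 1, rich in fat cell genes, was the highest library for Fabp4 and Lpl. With replicate 6 kept and replicate 1 left out they were at 0.15 and -0.06, and the median of the 24 genes was 0.32.

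Several genes of alternatively activated macrophages, chosen after their values were seen, were also high in replicate 6. Retnla, the gene of the secreted protein RELMa, had 8270 reads there and 414 to 791 in each of the other libraries. Arg1, arginase-1, had 737 reads against 7 to 20, and Mmp12, macrophage elastase, had 1905 against 22 to 70. The library that held the highest Ctsk, Itgax and Atp6v0d2 levels was thus also the one with the highest levels of these 3 genes.

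Markers of other cells were set beside the members. For 12 genes common to all macrophages the sum was 8858 to 11568 CPM in RAG1-/- lungs and 8626 to 11284 in RAG1-/- Sgo1-/+. Without the abundant Lyz2 and Lamp1 it was 573, 419 and 442 CPM in RAG1-/- lungs and 496, 524 and 1784 in RAG1-/- Sgo1-/+. Of the 1784 CPM of replicate 6, Ctss held 834 and Lgals3 608. Replicate 6 was the highest library for 9 of the 12 genes, against 25.4% of all genes tested. It was at least 2-fold above every other library for 3, Cd68, Ctss and Lgals3, against 2.51%. Csf1r, Aif1 and Lyz2 were at 0.76, 0.48 and 0.84 times the highest other library there. Interstitial macrophage and monocyte genes had 0 of 14 with an unadjusted *P* under 0.05 with edgeR, and summed to 351 to 476 and 456 to 556 CPM. Of 8 neutrophil genes tested, 6 had a log2 fold change below 0, the side of Siglecf, and 2 above. At an unadjusted *P* under 0.05 with edgeR, 3 were lower in RAG1-/- Sgo1-/+. Without replicate 1, where the summed neutrophil genes were highest, 1 was lower (S100a9, -1.32) and 1 higher (Ltf, 0.82). Without replicate 6, 3 were lower and 0 higher. S100a9 had 50.3, 32.3 and 48.9 CPM in RAG1-/- lungs and 8.28, 26.3 and 13.7 in RAG1-/- Sgo1-/+ lungs (log2 fold change -1.43, SE 0.35, unadjusted *P*=0.00215, adjusted *P*=0.832), while Elane, Mpo and Ly6g had 0 reads in all 6 libraries. The summed neutrophil genes were 123 to 278 and 88.7 to 203 CPM, and their part in the Siglecf values was not tested. Type 2 epithelial markers, 10 genes from the cells that make surfactant, summed to 28512 to 34988 CPM in RAG1-/- lungs and 24675 to 32643 in RAG1-/- Sgo1-/+, with replicate 6 the lowest and 0 of the 10 at an unadjusted *P* under 0.05 with edgeR.

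**Figure D4:**
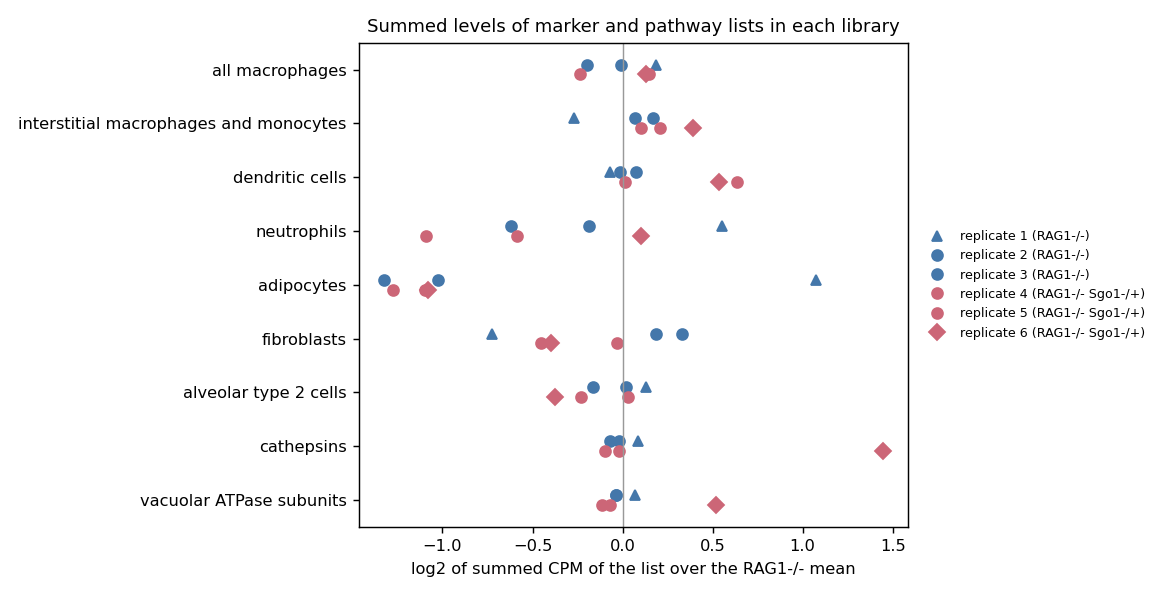
Summed CPM of each marker or pathway list as log2 of its ratio to the RAG1-/- mean (x axis), with 1 point per library, triangles for replicate 1 and diamonds for replicate 6. Replicate 6 stands out for cathepsins, at 5800 CPM against 1991 to 2261 in the other libraries, and replicate 1 for adipocyte genes, at 974 CPM.

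The genes most like the mean of the members over the 6 libraries were found among 14176 genes with at least 60 reads. They were Sephs2, a selenophosphate synthetase (Pearson's *r*=0.979), Tff2, a trefoil peptide (0.973), Srsf9, a splicing factor (0.973), Nagk, a sugar kinase (0.968), and Ptpn2, a tyrosine phosphatase (0.968). The points share 6 libraries, of which replicates 6 and 1 had the highest mean of the members, and the values are a description. Among the members themselves, *r* of log2 CPM was 0.95 for Ctsk with Atp6v0d2, 0.94 for Ctsk with Itgax and -0.93 for Ctsk with Ear1. Siglecf had no *r* above 0.49 with any other member.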

How the data were processed

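Lung RNA of 6 mice was sequenced on an Illumina MiSeq from TruSeq V2 libraries. The authors deposited a table of whole-number read counts per Entrez Gene, without normalization, made with GeneSifter on mouse build 37.2. The submitters' processing notes name BWA and edgeR, without versions, and the treatment of reads with several matches is not given in the sources used here. Each column stands in the table under 2 names that hold the same values, and 1 of the pair was read. The deposited list of the authors' own comparison (group means, ratios and p-values) was not used. Between 63.5 and 69.0% of the counts above 0 were even, so both reads of a pair may have been counted, and intervals cover counting error only.

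Genes with at least 10 counts in total entered the quasi-likelihood test (edgeR 4.0.16, R 4.3.3). Library sizes were the total counts, 3205822 to 9366774, and CPM are counts relative to them. The workflow was first tested on simulated data. A call required 2-fold and an adjusted *P* (Benjamini-Hochberg) under 0.05. The SE is the log2 fold change over the square root of F. Exact permutation tests of CPM are two-sided, with 10 splits. Alternatives were TMM, DESeq2 size factors, macrophage counts as library size, no filter, filterByExpr, the exact test of edgeR, DESeq2 1.42.0, limma-voom (limma 3.58.1), thinning to the smallest library, no fold threshold, and leaving out libraries. Halved counts were added after the data were seen. Promoters came from RefSeq (GRCm38.p6), and transcript lengths and shared windows from GENCODE. The counts are on another build, so no gene coordinates are given.

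The members and lists were chosen with earlier results of these data known. Named genes are the members, the 5 genes with the highest correlation to the members, Sgo1, Rag1, Xist and Ddx3y. From each list the 3 genes with the lowest unadjusted *P* were also picked (in cell type lists also the 3 most abundant). Not every gene picked from a list is named, as for the interstitial macrophage and type 2 cell lists. Others, among them Cidec, Acp5, Csf2, Csf2ra, Csf2rb, Spi1, Atp6v0d1, Ear10, Itgad, Adipoq, Igkc, defining markers at or near 0 and the genes of alternative activation, were named after their values were seen. Replicates are separate mice, and the labels give no batch or litter. Rag1 reads numbered 24, 10 and 16 in replicates 1 to 3 and 12, 8 and 8 in replicates 4 to 6, and Ddx3y had 2 reads in replicate 1 and 342 to 1228 in the others.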

Additional observations from a re-analysis of the deposited data

How the results depend on the processing

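Over 17 alternatives the members gave 169 values, of which 153 kept the direction and 0 reached an adjusted *P* under 0.05. Fabp1 was left out by filterByExpr. Pparg, close to 0, turned to -0.018 with TMM, -0.013 with DESeq2 size factors, -0.00867 with the DESeq2 test, -0.079 with limma-voom, -0.118 after thinning, -0.013 with halved counts (an alternative chosen after seeing the data), and ranged from -0.235 to 0.239 when 1 library was left out. Leaving out 1 library gave -0.099 to 0.402 for Abcg1, -0.487 to 1.81 for Atp6v0d2 and -0.116 to 2.23 for Ctsk, each lowest, and reversed, without replicate 6. Without replicates 2 and 6 Pparg was at -0.332, Abcg1 at -0.164, Atp6v0d2 at -0.604 and Ctsk at -0.150. Genes called across the table were 1 with DESeq2 (Awat1) and 0 to 1 when 1 library was left out, the 1 being H2-K1 without replicate 5. Members with an unadjusted *P* under 0.05 were 1 with limma-voom, which also moved Atp6v0d2 to 0.36, Ctsk to 0.85, Itgax to 1.06 and Marco to -1.20, and 2 to 4 with 1 library left out. The median of the members ranged from -0.176 to 0.272 with 1 library left out. The cause of these shifts was not tested. No paired analysis was possible because the labels name no pairs or litters. Siglecf stayed between -0.94 and -0.68, with an unadjusted *P* under 0.05 in 16 of 17 alternatives, thinning being the exception. Itgax was between 0.33 and 2.04, with 14 of 17, and Ctsk had 11 of the 16 that gave it a *P*, as DESeq2 gave none. Depth limits Fabp1, Marco and Siglecf most, since they rest on 54, 232 and 280 reads in all. Every count of these genes is even, so they rest on fewer read pairs than reads if both reads of a pair were counted.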
